A study of Mus musculus with 28 samples.

Results

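The early response of mouse hypothalamus to leptin was measured here in depleted RNA, the RNA left in the lysate after the ribosomes of leptin-receptor cells had been pulled out. By title and label, these are 7 of the 28 libraries of the series: 3 from leptin-treated mice (m24, f2 and f4) and 4 from vehicle-treated mice (m1, m3, f1 and f3), all wild type for leptin and all taken 3 h after injection. Each mouse carried LepRb-eGFP-L10a, a reporter that puts eGFP on the ribosomal protein L10a in cells that express LepRb, the long leptin receptor isoform. Mice were 10 to 13 weeks old and lost access to food at lights-on. They were injected at that time, either with metreleptin, a leptin analogue, at 5 mg per kg intraperitoneally, or with vehicle, which the protocol gives as 0.9% saline and the treatment label as PBS. Antibodies against eGFP took the tagged ribosomes from each lysate (bead fraction), and the depleted library came from the remaining liquid of the same lysate. Control mice carried the same reporter. The depleted fraction is therefore bulk hypothalamic RNA of all cell types from which tagged ribosomes had been taken. The labels do not say whether a lysate came from 1 mouse or from a pool. P-values accordingly measure an effect against a spread between samples that may in part be technical. For depleted RNA that spread was estimated over all 14 depleted libraries, including those of 10 h and of leptin-deficient ob/ob mice.

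Leptin is a hormone of fat tissue that reports energy stores to the brain. On binding LepRb it activates the kinase JAK2, which phosphorylates the transcription factor STAT3. STAT3 enters the nucleus and switches on target genes, among them Socs3, whose product binds the receptor complex and limits further signalling. LepRb neurons of the hypothalamus act on neighbouring neurons, and hypothalamic neurons use peptides such as NPY, AgRP, somatostatin and vasopressin as messengers. Food deprivation changes many of these systems. Peptide genes are not confined to neighbours of LepRb cells. Npy stood at 223 to 921 CPM (counts scaled to a common library size) in the bead libraries of 3 h and at 18.0 to 23.8 CPM in depleted RNA. The depleted fraction holds neighbouring neurons, glia, microglia and vessel cells, and can hold RNA left from LepRb cells.

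STAT factors bind palindromes with the letters TTCNNNGAA, where N is any base. RefSeq promoter windows (GRCm38.p6, 250 bases before to 50 after each start) were searched on both strands. The letters occurred in 8.3% of 32851 windows and in 3 of 12 windows of JAK-STAT feedback genes, which come from 9 genes. Below are the stretches with the motif for the feedback genes Socs3 and Cish and for Etv6, a repressor of the ETS family whose leptin effect differed between the fractions, with the match in capitals. Socs3 is shown at chr11:117969452-117969616 on the minus strand, Cish at chr9:107296659-107296688 and Etv6 at chr6:134035710-134035739, both on the plus strand. A match of letters is a description and not evidence of binding.
Socs3: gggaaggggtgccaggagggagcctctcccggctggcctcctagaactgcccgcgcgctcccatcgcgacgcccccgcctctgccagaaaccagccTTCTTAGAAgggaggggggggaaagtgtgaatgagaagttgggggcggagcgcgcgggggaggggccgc
Cish: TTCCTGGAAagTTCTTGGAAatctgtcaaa
Etv6: cagtttctctcTTCCAGGAAggaaaacatt

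The 7 depleted libraries held 23728531 to 38760273 counts and came from 1 sequencing run. Transcripts of the Y-linked gene Ddx3y were at 86.7 to 93.2 CPM (counts scaled to a common library size) in the libraries with m in the title and at 0.0722 to 0.17 CPM in those with f, a split that follows the title letters. Hypothalamic peptide genes were present in each library (Avp at 82.2 CPM or more, Sst at 95.4 CPM or more). The thalamic marker list summed to 2027 to 2582 CPM, so the dissections also held RNA of genes used as markers of the thalamus. The lysates m3 (vehicle) and f2 (leptin) held pituitary transcripts. Growth hormone (Gh) stood at 250.2 CPM in m3 and 1340.1 CPM in f2 against 0.0774 to 1.49 CPM in the other 5 libraries. Prolactin (Prl) stood at 42.2 CPM in m3 and 1870.5 CPM in f2 against 0.232 to 1.23 CPM in the others. Of 16 pituitary markers 11 were tested, and their median leptin effect was 1.05 on the log2 scale with all libraries and 0.032 without the lysates m3 and f2 (9 tested). Values without both lysates therefore stand beside the results. Of 84 named genes with a position in the GRCm38 annotation, 32 overlap another annotated gene, 25 of them one on the other strand; the library kit does not mark strand, so reads of such pairs cannot be told apart.

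No gene passed the threshold between leptin and vehicle in the depleted fraction. EdgeR's quasi-likelihood test called 0 of 19115 genes (0%) at an adjusted p under 0.05, and 1 of 18920 (0.00529%) without m3 and f2, the mitochondrial rRNA gene mt-Rnr2. The unadjusted p was under 0.05 for 1813 genes, where 956 would be expected with no difference, and the split was uneven: 655 were higher with leptin (3.43%) and 1158 were lower (6.06%). The 3 leptin libraries lay above all 4 vehicle libraries for 741 genes (3.88%) and below all of them for 782 (4.09%). The median gene differed by -0.0023 on the log2 scale. DESeq2 called 62 genes on the same counts, 9 higher (0.0471%) and 53 lower (0.277%), of which 7 were microglia markers, 5 neuropeptide genes and 9 mitochondrial genes. Leaving out m3 gave 14 calls, all lower, 9 of them mitochondrial, and leaving out m24 gave 3. Adjusted p-values below come from edgeR unless DESeq2 is named, and fold changes are log2 differences of leptin minus vehicle.

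Socs3 (chr11:117966079-117970047), the STAT3 target with the promoter stretch printed above, was the gene with the smallest p among those higher with leptin. It stood at 3.10, 3.07, 2.33 and 3.95 CPM in vehicle libraries m1, m3, f1 and f3, and at 5.50, 5.27 and 7.41 CPM in leptin libraries m24, f2 and f4. The lowest leptin value exceeded the highest vehicle value. The difference was 0.97 ± 0.174 (log2, SE), with an adjusted p of 0.200, and it was 1.05 without m3 and f2 (adjusted p = 0.284). DESeq2 gave Socs3 an adjusted p of 0.00154. Over 18 alternative settings the Socs3 difference stayed between 0.80 and 1.09, and 2 settings called it.

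The other feedback genes showed smaller differences. Of 16 JAK-STAT feedback genes tested, 1 was higher and 1 lower at an unadjusted p under 0.05 (3.43% and 6.06% over all genes), and 2 lay above and 1 below all vehicle libraries (3.88% and 4.09% over all genes). Without m3 and f2, 2 lay above and 3 below, beside 10.7% and 9.7% over all genes. Socs5, a relative of Socs3, was the second of those above, at 168 to 177 CPM with vehicle and 179 to 185 CPM with leptin (log2 0.082, adjusted p = 0.548). Cish, which limits STAT5 signalling, stood at 6.16 to 7.51 CPM with vehicle and 5.82 to 8.21 CPM with leptin, so its groups overlapped (log2 0.10, adjusted p = 0.834). Socs2, a regulator of growth hormone signalling, differed by 0.17 and overlapped as well. Socs2 was highest in f2, at 20.6 CPM, and the difference was 0.043 without m3 and f2.

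Upstream of these genes, the receptor and its kinase showed small differences. Lepr, the leptin receptor gene, stood at 1.55 to 2.12 CPM with vehicle and 1.59 to 2.26 CPM with leptin (log2 0.054 ± 0.172, adjusted p = 0.947). In the bead libraries of the same lysates Lepr stood at 6.13 to 10.2 CPM. Jak2, the receptor kinase gene, was at 47.7 to 49.9 CPM with vehicle and 50.0 to 54.3 CPM with leptin, without overlap (log2 0.091, adjusted p = 0.599). Pik3ca, the catalytic subunit of a phosphoinositide kinase downstream of the receptor, was at 97.4 to 99.8 CPM with vehicle and 104 to 114 CPM with leptin (log2 0.12, adjusted p = 0.469). These are the 2 of 15 receptor-proximal genes whose leptin libraries lay above all vehicle libraries, beside 3.88% of all genes, and 0 lay below. At an unadjusted p under 0.05, 1 of the 15 was higher and 1 lower, beside 3.43% and 6.06% over all genes. Without m3 and f2, 0 were either. Stat3 itself stood at 68.9, 73.3, 74.0 and 76.3 CPM with vehicle and at 79.1, 87.5 and 72.9 CPM with leptin. Its highest value was in f2 and f4 overlapped the vehicle libraries (log2 0.13, adjusted p = 0.555; 0.052 without m3 and f2). Irf9, a partner of STAT proteins in interferon signalling, differed by -0.014.

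Genes known to respond to STAT3 in other cells were a list of 33 tested genes, of which 5 were higher and 0 lower at an unadjusted p under 0.05, beside 3.43% higher over all genes. Leaving out 1 lysate at a time gave 2 to 5 higher, with 2 without f2 and 3 without m24, f3 or m1. Leptin lay above all vehicle libraries for 3, beside 3.88%, and these were Etv6, Atf3 and Arid5a. Without m3 and f2, 3 of the 33 were higher and 2 lower at an unadjusted p under 0.05, beside 4.28% lower over all genes. In that setting 4 lay above and 3 below all vehicle libraries, near the 10.7% and 9.7% over all genes. Etv6 (chr6:134035700-134270158) stood at 19.3, 20.6, 20.5 and 17.7 CPM with vehicle and at 23.4, 22.7 and 23.2 CPM with leptin. The leptin values were tightly grouped above the vehicle values (log2 0.24 ± 0.0666, adjusted p = 0.374; 0.27 without m3 and f2). Atf3, a stress-induced transcription factor of the bZIP family, stood at 1.44, 1.004, 1.61 and 1.74 CPM with vehicle and at 1.94, 2.64 and 2.36 CPM with leptin. Here m3 was the lowest vehicle library and f2 the highest leptin library. The Atf3 difference was 0.68 ± 0.192 (adjusted p = 0.374) with all libraries and 0.43 without those lysates (adjusted p = 0.759). Arid5a (chr1:36307733-36324029), an RNA-binding protein that stabilizes cytokine mRNAs, stood at 16.0 to 17.6 CPM with vehicle and 17.7 to 20.4 CPM with leptin (log2 0.16, adjusted p = 0.527), and its difference was 0.074 without m3 and f2. Pim1, a kinase gene, and Gadd45a, a growth-arrest gene, differed by 0.37 and 0.22 with overlapping groups. Timp1, an inhibitor of matrix proteases, was under 0.5 CPM in each library and could not be resolved (log2 0.18 ± 0.57). The median of the list was 0.0028, beside -0.0023 over all genes.

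**Figure D1:**
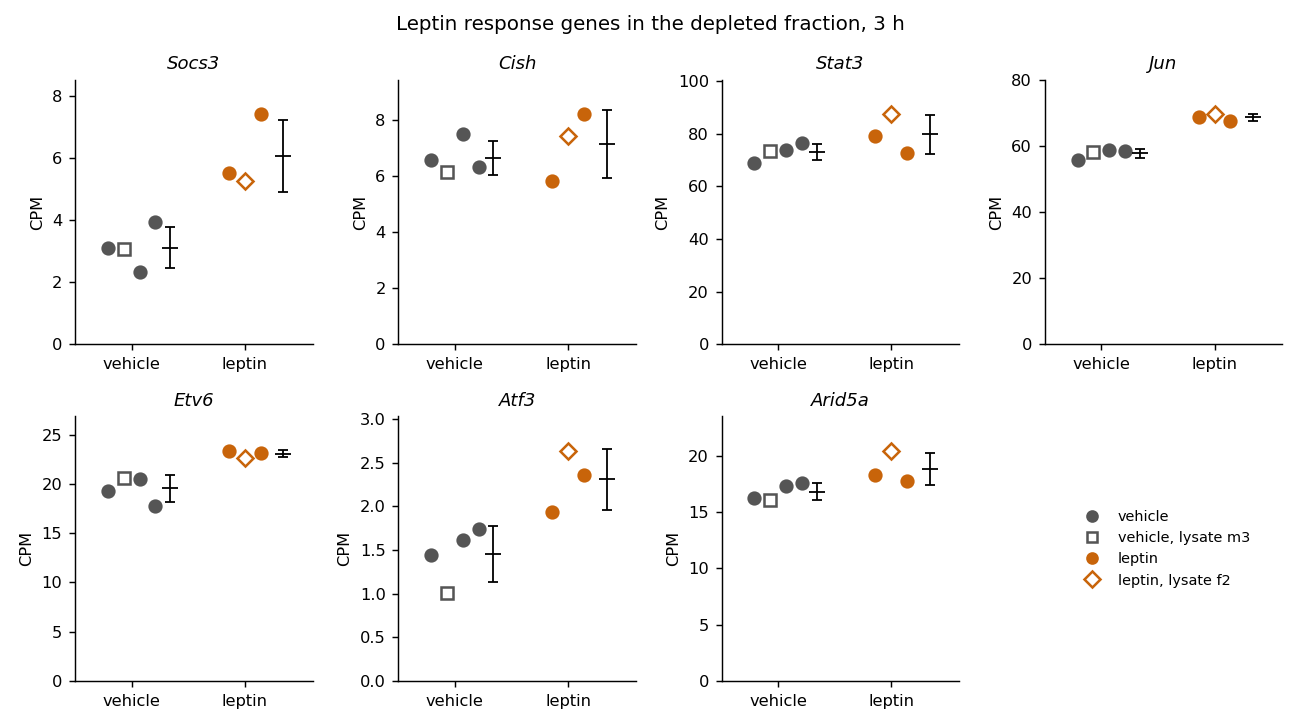
Level in CPM in the 7 depleted libraries of 3 h for Socs3, Cish, Stat3, Jun, Etv6, Atf3 and Arid5a, 1 panel per gene with its own vertical axis from 0; points are libraries, open symbols are the lysates m3 and f2 with pituitary transcripts, and bars are the mean ± SD of 4 vehicle and 3 leptin libraries. Leptin points lie above all vehicle points for Socs3 (5.27 to 7.41 against 2.33 to 3.95 CPM), Jun, Etv6, Atf3 and Arid5a, and the arms overlap for Cish and Stat3.

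Immediate early genes, which neurons switch on within minutes of activity, showed few differences: of 33 tested, 2 were higher and 0 lower at an unadjusted p under 0.05, beside 3.43% higher over all genes, and 3 lay above all vehicle libraries, beside 3.88%. The count higher was 1 without m3 or without m24 and 5 without f3. Jun (chr4:95049034-95052222), a subunit of the AP-1 transcription factor, stood at 55.9, 58.2, 58.7 and 58.5 CPM with vehicle and at 68.8, 69.7 and 67.7 CPM with leptin. The gap between the arms was wider than the range within either arm. The Jun difference was 0.25 ± 0.058 (adjusted p = 0.299) and 0.24 without m3 and f2, and DESeq2 gave it an adjusted p of 0.0381. Jun overlaps an antisense gene. Ier5, an immediate early regulator of stress genes, was at 19.2 to 21.5 CPM with vehicle and 21.6 to 22.8 CPM with leptin (log2 0.14, adjusted p = 0.516). Klf6, a zinc finger factor, differed by 0.10 with overlapping groups.

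Besides Socs3 and Jun, the rule for named genes took 10 further genes that were higher without overlap. Zfp36l2, which promotes decay of mRNAs with AU-rich elements, stood at 19.97 to 23.4 CPM with vehicle and 25.6 to 27.9 CPM with leptin (log2 0.33, adjusted p = 0.292). Hivep1, a large zinc finger transcription factor, stood at 84.2 to 87.4 CPM with vehicle and 96.0 to 106 CPM with leptin (log2 0.22, adjusted p = 0.292). Adarb2, a brain RNA-editing enzyme homologue without known activity, stood at 76.8 to 81.7 CPM with vehicle and 88.4 to 104 CPM with leptin. Its difference was 0.27, and 0.18 without m3 and f2. Pde4d, a cAMP phosphodiesterase, differed by 0.24, Arhgef11 by 0.23, Akap10, an anchor of protein kinase A, by 0.24, and Ppm1h, a phosphatase, by 0.21. Depdc5, part of a complex that restrains mTORC1, differed by 0.23, and Mapk8ip3, a scaffold for JNK kinases and axonal transport, by 0.16. Rtraf-ps, a pseudogene, differed by 0.57, but its reads may belong to its parent gene. DESeq2 placed Zfp36l2 (adjusted p = 0.0195), Hivep1 (0.0148), Adarb2 (0.0355), Arhgef11 (0.0341), Mapk8ip3 (0.0499) and Rtraf-ps (0.0194) under its threshold.

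Many neuropeptide genes stood lower with leptin. Of 33 tested, 14 were lower and 0 higher at an unadjusted p under 0.05, beside 6.06% lower over all genes, and 14 lay below all vehicle libraries, beside 4.09%. The median difference was -0.32, and it was -0.32 without m3 and f2 as well; then 17 lay below all vehicle libraries, beside 9.7% of all genes. Peptide genes are strongly expressed by few neurons, and in bulk tissue fewer cells of a type and less RNA per cell cannot be told apart. Of 11 markers of the striatum, a neighbouring region, 10 had negative differences (median -0.32; -0.25 without m3 and f2). At an unadjusted p under 0.05, 2 were lower and 0 higher, beside 6.06% lower over all genes. Below all vehicle libraries lay 3, beside 4.09%: Tac1 and Penk, which are peptide precursor genes, and Six3, also listed as a hypothalamic factor. Tac1 (-0.32) is in the neuropeptide list too and is the median gene of both, so the 2 lists are not independent. The summed level of the striatal markers was 463.5 to 689 CPM with vehicle and 418.3 to 472.9 CPM with leptin, so the arms overlapped, and no striatal marker was at 0. Their part in the result was not tested.

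Pnoc (chr14:65400673-65425472), the precursor of the opioid-like peptide nociceptin, had the smallest p of all genes tested. It stood at 27.4, 25.7, 28.1 and 25.0 CPM with vehicle and at 20.8, 19.1 and 20.1 CPM with leptin. The gap between the arms was wider than the spread within either arm. The Pnoc difference was -0.41 ± 0.0626 (adjusted p = 0.181), a level 24.7% lower, and -0.40 without m3 and f2 (adjusted p = 0.284). DESeq2 gave it an adjusted p of 0.00049, and over 18 alternative settings the difference ran from -0.44 to -0.25, with 3 settings calling it. Sst, the precursor of somatostatin, stood at 141, 133, 152 and 141 CPM with vehicle and at 122, 95.4 and 102 CPM with leptin (log2 -0.41 ± 0.0756, adjusted p = 0.200; -0.37 without m3 and f2). Each leptin library lay below each vehicle library, with m24 nearest to them.

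The 2 magnocellular peptides showed larger differences. Avp (chr2:130580620-130582554), the vasopressin precursor, stood at 154, 156, 187 and 191 CPM with vehicle and at 111, 82.2 and 84.5 CPM with leptin, a difference of -0.89 ± 0.169 (adjusted p = 0.292). Oxt, the oxytocin precursor, which was chosen after its values were seen, stood at 107, 97.2, 117 and 90.6 CPM with vehicle and at 74.3, 47.3 and 65.2 CPM with leptin (log2 -0.72, adjusted p = 0.374). Neither gene overlapped between the arms, and without m3 and f2 the differences were -0.86 for Avp and -0.59 for Oxt. DESeq2 gave Avp an adjusted p of 0.00164 and Oxt 0.0499. Tac2, the neurokinin B precursor, stood at 29.9 to 33.9 CPM with vehicle and 21.9 to 26.7 CPM with leptin (log2 -0.41, adjusted p = 0.299).

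Peptide genes of the arcuate feeding circuit were less uniform. Npy, the appetite-stimulating neuropeptide Y, stood at 20.02, 23.8, 23.7 and 23.5 CPM with vehicle and at 18.5, 18.7 and 18.0 CPM with leptin (log2 -0.31, adjusted p = 0.412). The m1 library sat below the other vehicle libraries and still above the leptin ones. Agrp, made by the same neurons, was at 2.98 to 5.27 CPM with vehicle and 2.39 to 3.50 CPM with leptin, and its groups overlapped (log2 -0.25, adjusted p = 0.7996). Cartpt, an appetite-suppressing peptide gene, overlapped too (log2 -0.14). Pomc, the precursor of the appetite-suppressing melanocortins and also a product of the pituitary, stood at 28.3, 80.5, 38.1 and 24.8 CPM with vehicle and at 32.6, 505 and 18.4 CPM with leptin. Its highest values in each arm were in m3 and f2, and the Pomc difference turned from 2.10 with all libraries to -0.26 without both.

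**Figure D2:**
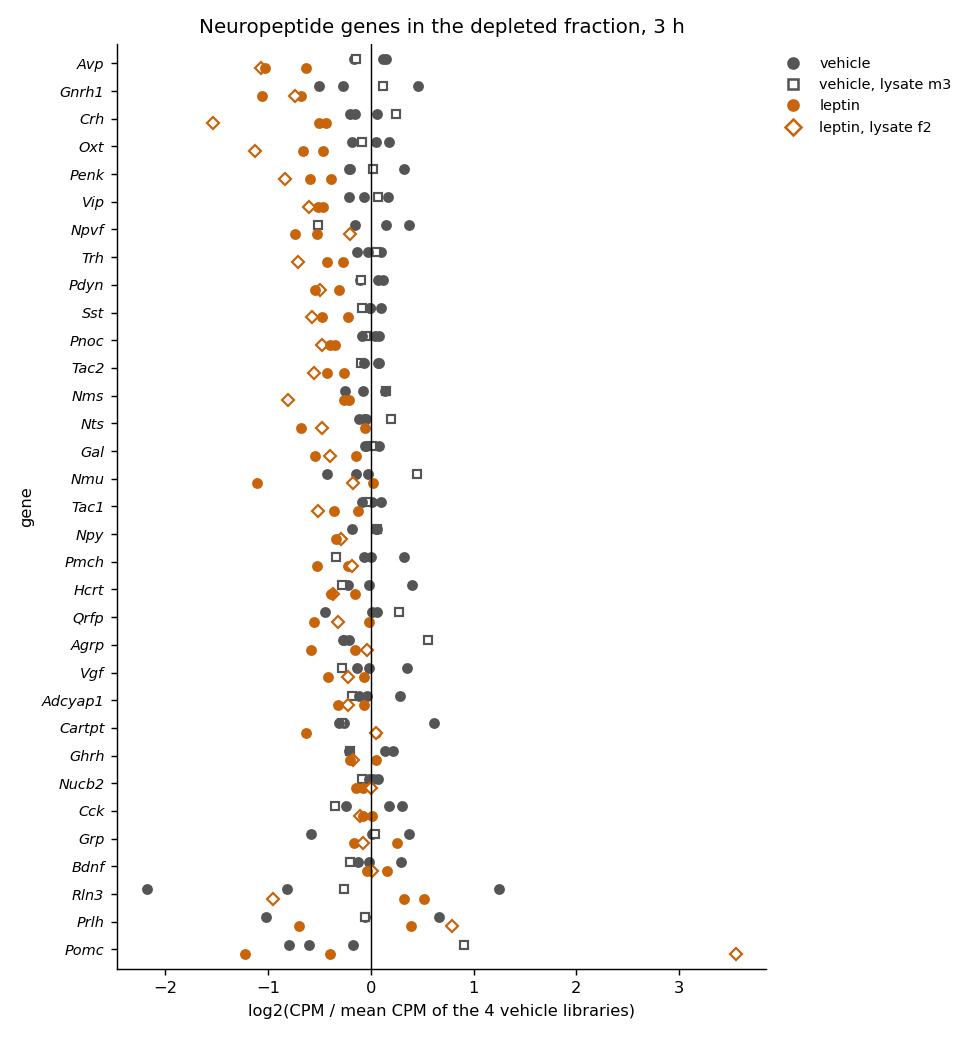
Level of each of the 33 tested neuropeptide genes in the 7 depleted libraries, as log2 of CPM over the mean of the 4 vehicle libraries (horizontal axis), 1 row per gene ordered by the fitted leptin effect; grey points are vehicle, orange points leptin, and open symbols the lysates m3 and f2. For 14 genes all leptin points lie left of all vehicle points, and for Pomc the f2 library lies far to the right.

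Receptors for these peptides and the enzymes that process them also stood lower in part. Of 30 receptor genes tested, 9 were lower and 0 higher at an unadjusted p under 0.05, beside 6.06% lower over all genes, and 6 lay below and 1 above all vehicle libraries, beside 4.09% and 3.88% (median -0.21; -0.19 without m3 and f2). The count lower was 5 without m1, 5 without f2 and 5 without both m3 and f2. Sstr2 and Sstr1, somatostatin receptors, differed by -0.46 and -0.28. Npy2r, a presynaptic receptor for NPY, stood at 12.5 to 16.3 CPM with vehicle and 9.68 to 11.8 CPM with leptin (log2 -0.45, adjusted p = 0.374). Mc3r, a melanocortin receptor, differed by -0.37. Of 14 prohormone-processing genes, 5 were lower and 1 higher at an unadjusted p under 0.05, beside 6.06% and 3.43%. Below all vehicle libraries lay 1, beside 4.09%. The count lower was 1 without m1, 1 without f1, 0 without f2 and 0 without f4, and it was 4 without m3 and f2, with 0 higher. Pcsk1, which cleaves prohormones, stood at 28.9 to 38.7 CPM with vehicle and 23.8 to 28.7 CPM with leptin (log2 -0.29, adjusted p = 0.513). Ecel1, a neuronal endopeptidase, overlapped at 65.4 to 73.5 CPM with vehicle against 65.7, 48.5 and 45.8 CPM with leptin. Among 14 general neuronal genes 1 was higher and 0 lower at an unadjusted p under 0.05, beside 3.43% and 6.06% over all genes. None was free of overlap, beside 3.88% above and 4.09% below over all genes. Their summed level was 11828 to 12819 CPM with vehicle and 12267 to 13132 CPM with leptin.

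Microglia markers were the list with the largest share of genes below all vehicle libraries among those drawn by list. Lists and members were chosen with earlier results of these data known, so this rank is a description only. Of 20 tested, 16 were lower and 0 higher at an unadjusted p under 0.05, beside 6.06% lower over all genes. Below all vehicle libraries lay 14, beside 4.09% of all genes. The median difference was -0.54, and -0.50 without m3 and f2, where 16 lay below, beside 9.7%, and 15 were lower at an unadjusted p under 0.05, beside 4.28%. Summed over the list, the level was 231.6, 185.6, 249.3 and 204.2 CPM in m1, m3, f1 and f3 and 173.8, 138.5 and 161.8 CPM in m24, f2 and f4. The lowest library of each arm was the one with pituitary transcripts, m3 and f2. No marker of the list was at 0.

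Among single markers, Ctss (chr3:95526786-95556403), the lysosomal protease cathepsin S, stood at 18.6, 10.96, 17.5 and 15.9 CPM with vehicle and at 10.02, 7.95 and 8.67 CPM with leptin (log2 -0.82 ± 0.164, adjusted p = 0.292; -0.90 without m3 and f2, adjusted p = 0.0692). The m3 library came nearest to the leptin libraries. C1qb (chr4:136880129-136886187), a subunit of the complement protein C1q, stood at 16.1, 11.1, 18.5 and 14.4 CPM with vehicle and at 9.33, 6.83 and 9.54 CPM with leptin (log2 -0.81 ± 0.173, adjusted p = 0.292). Its partner subunits C1qc and C1qa, the latter chosen after its values were seen, differed by -0.60 and -0.63 without overlap. Tmem119, a surface marker of resident microglia, stood at 8.20 to 10.9 CPM with vehicle and 4.88 to 7.41 CPM with leptin (log2 -0.58, adjusted p = 0.352). P2ry12, the ADP receptor that steers microglial processes, differed by -0.54. DESeq2 gave adjusted p-values of 0.000902 for Ctss, 0.00188 for C1qb, 0.00895 for C1qc, 0.041 for C1qa and 0.0499 for Tmem119.

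Cathepsin S and C1q are made by cells of the myeloid lineage, whose master regulator PU.1 binds sites with a GAGGAA core. In the RefSeq windows (both strands) these letters occurred in 28.3% of all 32851 windows and in 8 of 15 windows of microglia markers, which come from 13 genes. The stretches before the start are shown for 3 markers that DESeq2 called, with the match in capitals (on the minus strand it reads TTCCTC): C1qb at chr4:136886201-136886450 and C1qc at chr4:136893066-136893164, both on the minus strand, and Ctss at chr3:95526536-95526785 on the plus strand. A core this short is common, and nothing about binding follows from it.
C1qb: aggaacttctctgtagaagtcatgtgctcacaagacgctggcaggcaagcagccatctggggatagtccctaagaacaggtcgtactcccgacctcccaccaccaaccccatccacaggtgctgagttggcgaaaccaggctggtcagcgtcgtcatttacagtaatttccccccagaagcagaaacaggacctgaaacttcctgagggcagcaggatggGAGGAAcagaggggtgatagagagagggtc
C1qc: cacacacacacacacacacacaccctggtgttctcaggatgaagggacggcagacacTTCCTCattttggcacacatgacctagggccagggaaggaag
Ctss: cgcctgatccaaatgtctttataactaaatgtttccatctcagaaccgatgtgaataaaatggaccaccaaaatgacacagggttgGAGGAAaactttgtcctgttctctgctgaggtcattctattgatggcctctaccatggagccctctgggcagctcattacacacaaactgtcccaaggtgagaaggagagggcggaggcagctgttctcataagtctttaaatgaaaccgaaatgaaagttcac

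**Figure D3:**
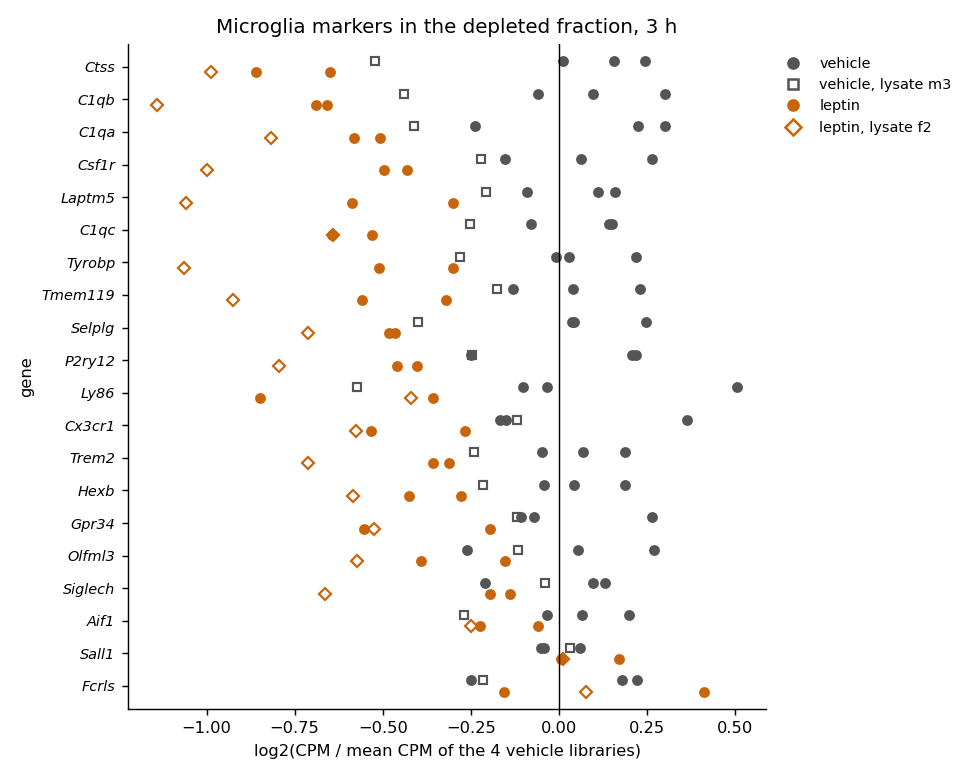
Level of each of the 20 microglia markers in the 7 depleted libraries, as log2 of CPM over the mean of the 4 vehicle libraries (horizontal axis), 1 row per gene ordered by the fitted leptin effect; grey points are vehicle, orange points leptin, and open symbols the lysates m3 and f2. All leptin points lie left of all vehicle points for 14 of the 20 markers, and m3 is the vehicle library nearest to the leptin libraries for Ctss, C1qb and C1qa.

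Other genes of the myeloid lineage stood lower in part. Of 21 surveillance and phagocytic receptor genes tested, 10 were lower and 0 higher at an unadjusted p under 0.05, beside 6.06% lower over all genes, and 8 lay below and 1 above all vehicle libraries, beside 4.09% and 3.88% (median -0.38). Fcer1g, an adaptor of Fc receptors, differed by -0.58, Mertk, a receptor for dying cells, by -0.38, and Tlr7, a sensor of RNA, by -0.69. None of the 3 overlapped between the arms. Of 11 border macrophage and blood leukocyte markers tested, 3 were lower and 0 higher, beside 6.06% lower over all genes. Below all vehicle libraries lay 2, beside 4.09%. The count lower was 1 without m1, without f2 or without f4, and 1 without both m3 and f2. Their summed level was 24.6 CPM in m1, 11.9 to 17.1 CPM in the other vehicle libraries and 9.87 to 11.5 CPM with leptin. In that list Lyz2, the lysozyme of macrophages and microglia, stood at 2.81 to 4.38 CPM with vehicle and 1.99 to 2.38 CPM with leptin (log2 -0.65, adjusted p = 0.352). Slc7a7, an amino acid transporter subunit found in macrophages, stood at 1.25 to 1.52 CPM with vehicle and 0.493 to 0.698 CPM with leptin (log2 -1.20, adjusted p = 0.200). C4b and H2-T23 were taken by the rule for named genes and not as myeloid markers. C4b, a complement component, stood at 5.52 to 6.61 CPM with vehicle and 3.46 to 3.62 CPM with leptin (log2 -0.77, adjusted p = 0.292). H2-T23, a nonclassical class I antigen gene with close paralogs, differed by -0.96.

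Interferon-response and antigen-presentation genes were lower as a list, but 1 vehicle library carried much of the difference. Of 24 tested, 11 were lower and 0 higher at an unadjusted p under 0.05, beside 6.06% lower over all genes, and 4 lay below all vehicle libraries, beside 4.09% (median -0.62). Their summed level was 241.7 CPM in m1 against 139.3 to 161.4 CPM in the other vehicle libraries and 133.0 to 135.6 CPM with leptin. Without m1 the median was -0.24 and 6 were lower. The count lower was also 6 without f4 and was 7 without m24. Tap1, the peptide transporter of antigen presentation, stood at 4.00 CPM in m1, 1.51 to 1.86 CPM in the other vehicle libraries and 0.831 to 1.495 CPM with leptin. Ifit1 and Ifit3, interferon-induced antiviral genes, were likewise highest in m1, at 6.24 and 11.4 CPM. B2m, the light chain of class I antigens, stood at 42.6, 25.2, 33.0 and 25.6 CPM with vehicle and at 20.5, 16.4 and 18.7 CPM with leptin (log2 -0.77, adjusted p = 0.299; DESeq2 0.000902), without overlap even apart from m1.

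Astrocyte and vessel markers were lower in part. Of 14 astrocyte markers, 6 were lower and 1 higher at an unadjusted p under 0.05, beside 6.06% and 3.43%, and 5 lay below and 1 above all vehicle libraries, beside 4.09% and 3.88% (median -0.21; -0.16 without m3 and f2). The count lower was 3 without f2. Slc1a3, a glutamate transporter, stood at 110, 98.7, 120 and 103 CPM with vehicle and at 72.7, 60.3 and 74.3 CPM with leptin. The arms were well apart (log2 -0.64 ± 0.139, adjusted p = 0.300; -0.60 without m3 and f2; DESeq2 0.000761). Agt, the angiotensin precursor, differed by -0.47, Gjb6, a gap junction subunit, by -0.27, and Slc4a4, a bicarbonate transporter, by -0.22, all without overlap. Of 14 endothelial markers, 3 were lower and 0 higher, beside 6.06% lower over all genes, and 4 lay below all vehicle libraries, beside 4.09% (median -0.31). The count lower was 7 without m3 and 2 without f1 or without f4. Examples were Ly6c1, a surface antigen, at -0.65, and Slco1a4, a transporter of the blood-brain barrier, at -0.45. Of 12 oligodendrocyte markers tested, 0 were lower or higher at an unadjusted p under 0.05, beside 6.06% and 3.43% over all genes. None was free of overlap, beside 4.09% below and 3.88% above over all genes. Whether the share of cell types in the lysates had a part in these differences was not tested.

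Further genes below all vehicle libraries, taken by the rule for named genes, belonged to no single list. F3, tissue factor, the trigger of blood clotting, which astrocytes make in brain, stood at 21.9, 19.3, 27.0 and 20.4 CPM with vehicle and at 12.3, 13.3 and 15.5 CPM with leptin (log2 -0.69 ± 0.118, adjusted p = 0.200; DESeq2 0.00049). Tmem260, a glycosyltransferase of the endoplasmic reticulum, stood at 17.8 to 20.4 CPM with vehicle and 12.7 to 13.6 CPM with leptin (log2 -0.55 ± 0.0891, adjusted p = 0.181; DESeq2 0.00049). In both genes the gap between the arms was wider than the range of the leptin libraries. Ctso, a cysteine protease, differed by -0.59, Pgrmc1, a haem-binding membrane protein, by -0.35, and Mfsd13a, a putative transporter, by -0.32.

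Genes of the glucocorticoid and fasting response mostly had negative differences, 15 of 17 tested. At an unadjusted p under 0.05, 7 were lower and 1 higher, beside 6.06% and 3.43%, and 2 lay below and 1 above all vehicle libraries, beside 4.09% and 3.88%. The median was -0.15. Without m3 and f2 the median was -0.29, 7 were lower and 0 higher, and 8 lay below all vehicle libraries, beside 9.7% of all genes. The count lower was 4 without m24. Sgk1, a kinase induced by glucocorticoids, stood at 124, 157, 182 and 180 CPM with vehicle and at 51.8, 119 and 87.0 CPM with leptin. The arms did not overlap, and f2 was the leptin library nearest to vehicle (log2 -0.90 ± 0.256, adjusted p = 0.412; -1.23 without m3 and f2). Arrdc2, an arrestin-domain gene, differed by -0.44 and Pdk4, which spares glucose in fasting, by -0.41. Zbtb16, another glucocorticoid-induced gene, went the other way at 14.8 to 24.2 CPM with vehicle and 24.4 to 26.1 CPM with leptin (log2 0.43, adjusted p = 0.423). Of 25 endoplasmic reticulum and integrated stress genes, 4 were lower and 1 higher (6.06% and 3.43% over all genes), and the count lower ran from 1 without f1 or without f4 to 11 without m24. Their members include Xbp1, a driver of the unfolded protein response, at -0.16, and Ddit4, an mTORC1 inhibitor, at -0.38. Of 19 clock genes, 2 were lower and 0 higher, beside 6.06% lower over all genes, and 0 were lower without m1 or without m24.

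Mitochondrially encoded transcripts, looked at after their values were seen, stood lower with leptin. Of 17 tested, 14 were lower and 0 higher at an unadjusted p under 0.05, beside 6.06% lower over all genes, including all 7 protein-coding genes tested of 13 in the table, whose differences ran from -0.40 to -0.38. These transcripts come from 1 precursor per strand and are not independent of each other. mt-Rnr2, the large ribosomal RNA, stood at 926, 715, 1027 and 976 CPM with vehicle and at 707, 591 and 670 CPM with leptin. The m3 library nearly met m24. The mt-Rnr2 difference was -0.47 ± 0.103 (adjusted p = 0.299) and -0.51 without m3 and f2 (adjusted p = 0.0139), the single call of that fit. Its adjusted p ran from 5.09e-16 to 0.987 over the 18 alternatives. mt-Rnr1, the small ribosomal RNA, differed by -0.46, mt-Cytb by -0.40 and mt-Nd1 by -0.39. A further fit, over the 3 h depleted libraries alone, took the microglia index (the mean log2 level of the markers) as a covariate. The index was 3.00 to 3.39 with vehicle and 2.61 to 2.92 with leptin. It moves with the arms without overlap, so this fit cannot separate it from leptin, and no conclusion is drawn. The differences were then -0.051 for mt-Rnr2, -0.057 for mt-Rnr1, -0.0046 for mt-Cytb and -0.035 for mt-Nd1. In that fit Ctss, itself a microglia marker, differed by -0.17, Pnoc by -0.25, Sst by -0.17 and B2m by -0.15. In the bead libraries the median over the 7 protein-coding genes was -0.068, with an SE of 0.536 for mt-Nd1 and 0.570 for mt-Cytb. Errors that wide do not show that the bead effect differs from the depleted one.

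**Figure D4:**
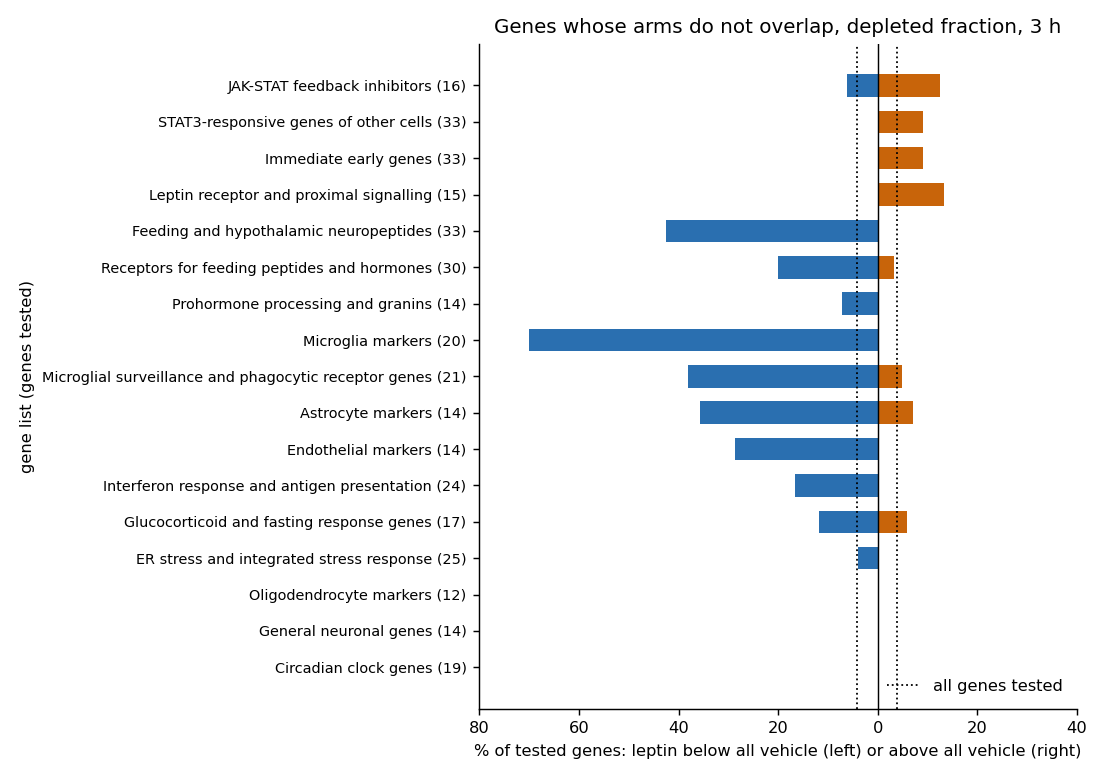
Share of the tested genes of 17 lists whose 3 leptin libraries lie below (blue, left) or above (orange, right) all 4 vehicle libraries in the depleted fraction; dotted lines mark the share over all 19115 genes tested, 4.09% below and 3.88% above. Microglia markers (14 of 20) and neuropeptides (14 of 33) reach furthest to the left. The lists were chosen with earlier results of these data known.

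The leptin effect was then set against that in the bead libraries of the same 7 lysates, which are enriched for RNA of LepRb cells. Beads also held transcripts used as markers of other cell types. The microglia marker Ctss stood at 2.15 to 7.74 CPM in beads and at 7.95 to 18.6 CPM in depleted RNA. Bead values of such markers cannot be assigned to LepRb cells, and how far they are bulk RNA of the lysate was not tested. Both fractions share lysates and so are not independent. In beads edgeR called 4 of 18212 genes (0.022%), and those were Socs3, Etv6, Arid5a and Atf3. Socs3 stood there at 8.36 to 10.5 CPM with vehicle and at 45.1, 24.1 and 54.1 CPM with leptin. It rose by 2.14 on the log2 scale (adjusted p = 0.00355), beside 0.97 in the depleted fraction. Over all genes, 619 of 19682 (3.15%) had an unadjusted p under 0.05 for the difference between the effects, and 2 passed the threshold (0.0102%), Arid5a and Etv6. For Arid5a the effect was 1.84 smaller in depleted RNA (difference -1.84 ± 0.222, adjusted p = 0.00742). For Etv6 the difference was -1.14 ± 0.145 (adjusted p = 0.00783). With all lysates the differences for Socs3 (-1.11) and Atf3 (-1.54) each had an adjusted p of 0.350. Without m3 and f2, where 79 genes passed, they were -1.36 (adjusted p = 0.0276) and -1.90 (adjusted p = 0.0279). The Etv6 call was lost without m1, m24 or f4 and the Arid5a call without m24, and both were lost when only the 14 libraries of 3 h were fitted.

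Among genes that stood lower with leptin, the all-lysate estimates in the 2 fractions lay near each other for some and further apart for others. Pnoc differed by -0.41 in depleted RNA and -0.45 in beads, Avp by -0.89 and -0.99, Ctss by -0.82 and -0.75, and Slc1a3 by -0.64 and -0.69. Ly6c1 differed by -0.65 in depleted RNA and -1.40 in beads, Slc7a7 by -1.20 and -0.56, Npy2r by -0.45 and -0.13, and mt-Cytb by -0.40 and -0.06. With all lysates, edgeR's test of the difference gave unadjusted p of 0.156 for Ly6c1, 0.238 for Slc7a7, 0.144 for Npy2r and 0.534 for mt-Cytb. Without m3 and f2 the same test gave Npy2r a difference of -0.63 (unadjusted p = 0.00436, adjusted p = 0.106). The adjusted p was then 0.278 for Ly6c1, 0.705 for Slc7a7 and 0.992 for mt-Cytb. None of these 4 genes thus passed the threshold in either setting, and Slc7a7 was at 0.253 to 0.752 CPM in beads. List medians in depleted RNA and beads were -0.54 and -0.53 for microglia, -0.32 and -0.32 for neuropeptides, -0.21 and -0.14 for peptide receptors, and -0.62 and -0.67 for interferon genes. They were -0.38 and -0.60 for the myeloid receptors, -0.21 and -0.43 for astrocyte markers and -0.31 and -0.88 for endothelial markers. With all lysates, no gene of these 7 lists passed the threshold for a difference between the fractions. A difference that misses the threshold does not show that the effects are equal.

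**Figure D5:**
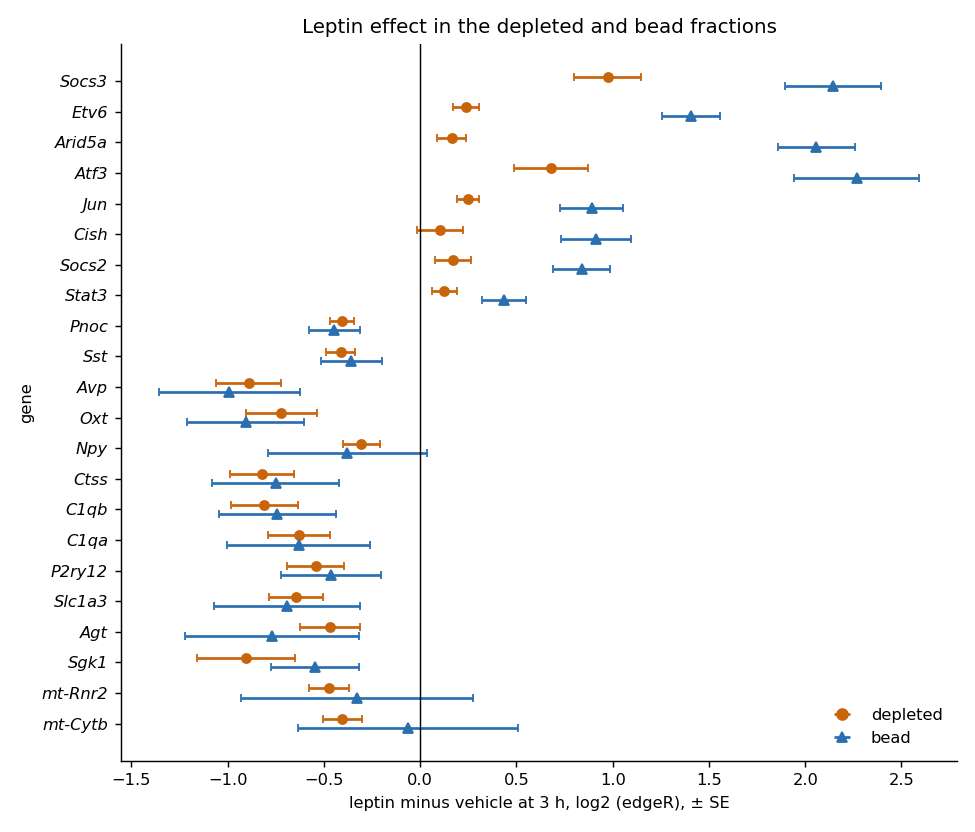
Leptin effect at 3 h (log2, leptin minus vehicle, ± SE from edgeR) for 22 genes in the depleted fraction (orange circles) and the bead fraction (blue triangles) of the same lysates. Socs3, Etv6, Arid5a and Atf3 lie further right in beads (2.14 against 0.97 for Socs3), and the symbols lie nearer each other for Pnoc (-0.41 and -0.45) and Avp (-0.89 and -0.99).

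Against the effect at 10 h, averaged over wild-type and leptin-deficient ob/ob mice in depleted RNA, 734 of 19115 genes (3.84%) had an unadjusted p under 0.05 and 2 passed the threshold (0.0105%). These were Strip2, a cytoskeletal scaffold gene (10 h minus 3 h -0.70 ± 0.1, adjusted p = 0.0487), and Gm26782, an antisense transcript (1.21 ± 0.175, adjusted p = 0.0487). Strip2 stood at 29.6 to 31.6 CPM with vehicle and 26.7 to 31.1 CPM with leptin at 3 h, with overlapping groups. Gm26782 stood at 10.7 to 15.1 CPM with vehicle and 7.26 to 9.50 CPM with leptin at 3 h (log2 -0.51, adjusted p = 0.299), and it overlaps Tep1 on the other strand. Neither passed without m3 and f2. For Socs3 the effect at 10 h was 0.55 smaller on the log2 scale (-0.55 ± 0.285, adjusted p = 0.9999), and for Pnoc it was 0.46 higher (adjusted p = 0.835). Time and sequencing run cannot be told apart, and the wild-type vehicle and ob/ob leptin arms at 10 h held 1 library each, assumed to vary like the other groups.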

How the data were processed

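The authors deposited a table of raw counts of reads per gene, whole numbers with no normalization, for 55487 genes and 28 libraries; 0 columns were unmapped. Per the labels' protocols, the RNA (integrity number 8 or more) was poly(A)-selected, 4 libraries shared a lane, and reads were single-end with 50 cycles; the kit keeps no strand information. The genome build was GRCm38.p6 and STAR 2.7.6a was run, per the notes on processing by the submitters. For read assignment to genes, the program, strand setting and annotation used are not given by the sources used here. Molecular identifiers are not described, so depth (23728531 to 38760273 counts in the 7 libraries) bounds counting error only. Positions are from a GENCODE annotation of GRCm38 (55141 IDs found).

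The analysis used edgeR 4.0.16 in R 4.3.3. A gene needed 10 counts in 3 libraries. After TMM scaling, the robust quasi-likelihood F test was run two-sided over the 14 depleted libraries in 6 groups (8 residual degrees of freedom), and p-values were adjusted by Benjamini-Hochberg over every gene tested, with 0.05 as the threshold. The bead fraction was fitted alike. Fractions were compared over 28 libraries with the lysate as a block, since titles pair them: deviations from the group mean correlated at r = 0.332 to 0.646 between a lysate's libraries and at most at 0.111 to 0.415 with another lysate (10418 genes). The code was tested on simulated data. CPM are counts scaled by TMM library size. Named genes were the 12 with the smallest p in each direction with a mean of at least 1 CPM, no overlap and no predicted-gene symbol, up to 4 per list by p, genes past a threshold, and fixed leptin, feeding and pituitary genes (Socs3 to Irf9); exceptions are marked. The members and lists (35 lists, 592 entries) were chosen with earlier results of these data known, and no list was tested as a set. Alternatives were DESeq2 1.42.0, voom in limma 3.58.1, other scalings, filters and covariates, and leaving out lysates. Sequences are RefSeq's. Counts of list members with 1 lysate left out, and counts without overlap that leave out m3 or f2 or both, were chosen after seeing the data.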

Additional observations from a re-analysis of the deposited data

Results flagged for a closer look

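In 7 of 85 genes followed, 1 of the 4 vehicle libraries lay apart from the other 3 by more than Dixon's limit at the 95% level, which chance gives in about 1 group in 20. Library m3, with pituitary transcripts, was the highest for Gh (250.2 CPM), Prl (42.2 CPM) and Agrp (5.27 CPM). Library m1 was the highest for Tap1 (4.00 CPM) and the lowest for Npy (20.02 CPM). Library f1 was the highest for Cartpt (107 CPM), and f3 the lowest for Mfsd13a (19.6 CPM).

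The leptin effect differed by its own test between depleted and bead RNA for Arid5a (-1.84 on the log2 scale) and Etv6 (-1.14), and between 10 h and 3 h for Strip2 (-0.70) and Gm26782 (1.21).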

How the results depend on the processing

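The count of genes called at 3 h in depleted RNA, 0, became 62 with DESeq2, 640 with no filter but 1 count, 1 without lysates m3 and f2, 1 with the pituitary index as a covariate, and 0 to 14 when 1 lysate was left out (14 without m3, 3 without m24). For the difference from beads, 2 calls became 7 with DESeq2, 24 with no filter, 79 without m3 and f2, 0 with the 3 h libraries alone, and 0 to 8 with 1 lysate left out; with no replicate block in place of the lysate pairing there were 2. For 10 h minus 3 h, 2 calls became 5 with DESeq2, 143 with no filter, 0 to 1 with 1 lysate left out, and 0 with library totals only, with voom, with a mean of at least 1 CPM and without m3 and f2. Genes without overlap went from 782 to 1855 lower and from 741 to 2038 higher without m3 and f2, fewer samples making overlap rarer; leaving out m3 alone gave 1222 and 1265, and f2 alone 1230 and 1258. The causes of the other changes were not tested. Of 1523 recomputed differences of 85 genes, 33 in 16 genes changed sign. With the microglia index as a covariate, which moves with the arms, these were Socs2 (-0.044), Stat3 (-0.0034), Irf9 (0.0853), Lepr (-0.0477), P2ry12 (0.0374), Pomc (-1.85), Cartpt (0.32), Gjb6 (0.0222), Agt (0.0808), Gh (-12.39), Prl (-9.37) and C1qa (0.0706). Without m3 and f2 they were Irf9 (0.014), Timp1 (-0.49), Pomc (-0.26) and Prl (-0.19). The title letter as a covariate turned Irf9 (0.0297), and the pituitary index Irf9 (0.00093) and Gh (-1.73). Over the fits with 1 lysate left out, the genes that changed sign ran from -0.0083 to 0.23 (Cish), -0.0733 to 0.0856 (Irf9), -0.0943 to 0.17 (Lepr), -0.45 to 0.62 (Timp1), -0.36 to 0.0073 (Agrp), -0.75 to 2.64 (Pomc), -0.25 to 0.14 (Cartpt), -6.25 to 9.14 (Gh), -3.92 to 9.55 (Prl) and -0.0949 to 0.0135 (Strip2). Depth limits genes near or below 1 CPM, with Timp1 among those below it.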
